A study of Mus musculus with 6 samples.

Results

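The transcription factors that set up and maintain the trophectoderm, the outer epithelium of the blastocyst, were examined in mouse embryos cultured with a mimic of the microRNA miR-30d. The group holds 10 genes, chosen by name for their known role and matched by gene symbol: Cdx2, Gata3, Gata2, Tfap2c, Tfap2a, Eomes, Elf5, Tead4, Id2 and Klf5. They are 10 of the 22485 genes named on the array and are read by 12 array features, 2 each for Tfap2a and Eomes and 1 for each of the others. Whole B6C3F1 blastocysts were arrayed on day 5. Embryos had been flushed on day 2 of pregnancy from females of 6 to 8 weeks that had been superovulated and mated, and were then cultured for 72 hours in CCM-30 medium with 400 nM of an oligonucleotide. The oligonucleotide was the miR-30d mimic in 3 samples and Scramble-Alexa 488, a scrambled control joined to a dye, in the other 3. There were 30 embryos to a condition. The labels call the 3 samples of a group biological replicates but do not say whether they came from separate matings, so a p-value here speaks of the spread among these samples alone. No untreated embryos were analysed here, and the dye is described for the scrambled control alone, so effects of the dye and of the mimic cannot be told apart.

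As background, the trophectoderm is the first epithelium of the embryo and gives rise to the placenta. In outer cells of the morula, Hippo signalling is low, the coactivator YAP enters the nucleus, and with the DNA-binding factor TEAD4 it switches on Cdx2, while Notch signalling adds a further input. CDX2, GATA3 and the AP-2 factors then install the epithelial programme, and EOMES and ELF5 act in the trophoblast cells that keep stem-cell character next to the inner cell mass.

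Signal was given as log2 values, on which a difference of 1 is a doubling, and 17399 genes entered the comparison after the dimmest features were left out. All 10 factors and all 12 of their features passed that filter. Array medians lay between 7.367 and 7.376. Both replicate 1 arrays stood apart from the rest, with 2108 and 2683 distinct values against 4410 to 5979 on the others, and scramble replicate 1 correlated at a mean of 0.913 with the other arrays, against 0.938 for mimic replicate 1 and 0.958 to 0.963 for the rest. The differences of the 10 factors are therefore also given without both replicate 1 arrays, as are the medians given for gene lists. Arrays with the same replicate number deviated together, so values are also given with the replicate number as a block, that is, compared within same-numbered pairs. Arrays of replicates 2 and 3 did so across numbers too, though more weakly. Because the embryos were arrayed whole, fewer trophectoderm cells and less RNA per cell cannot be told apart.

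Every one of these factors was read well above the dim end of the array. The median level of features without a gene name was 7.22, and the brightest feature of each factor averaged between 10.01 for Tead4 and 13.45 for Klf5. Among the 22485 named genes, ranked by their brightest feature, Klf5 held rank 436, Cdx2 rank 607, Eomes rank 656, Elf5 rank 891 and Id2 rank 896. Tfap2c stood at rank 1017, Gata3 at 1213, Tfap2a at 1417, Gata2 at 1686 and Tead4 at 3716. Brightness also depends on how well a probe hybridises, so these ranks place signals on the array and are not an order of RNA amounts. Neighbours in the order overlapped in their ranges over the 6 arrays with a single exception, the step from Gata2, at 10.88 or more, to Tead4, at 10.37 or less. Trophectoderm keratins were bright, with Krt18 at 15.49 to 16.00 and Krt8 at 14.48 to 15.12. The inner cell mass genes were also read, Pou5f1 at 8.82 to 10.17, Nanog at 10.07 to 10.77 and Sox2 at 7.24 to 8.53, as were Gata6 at 11.04 to 11.36 and Sox17 at 9.61 to 10.47 of the primitive endoderm. The lowest Sox2 value, 7.24 on scramble replicate 1, was level with features without a gene name.

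**Figure D1:**
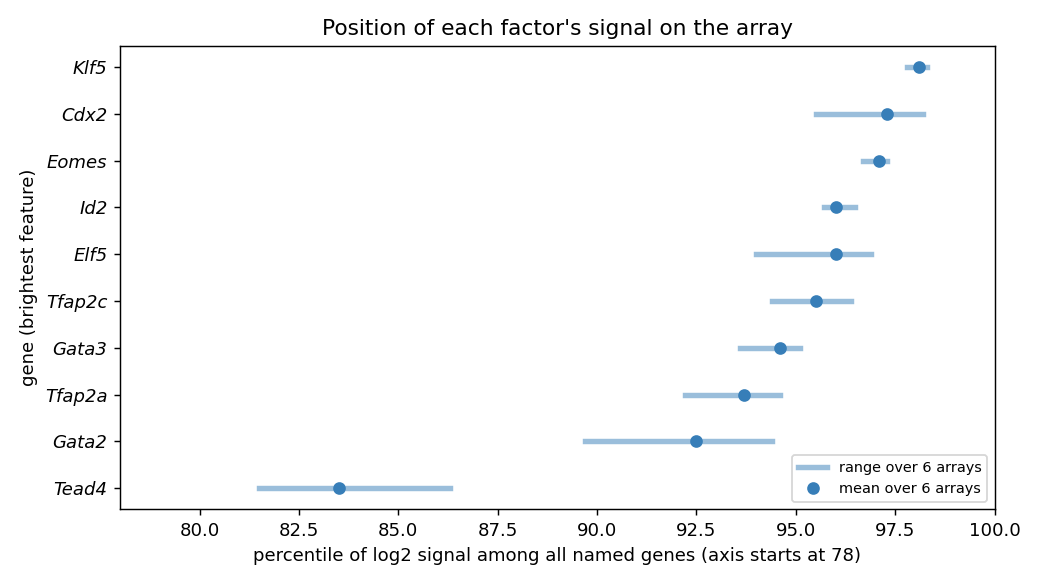
Percentile of each factor's brightest feature among the brightest features of all named genes (horizontal axis, starting at 78), with the mean over 6 arrays as a point and the range as a bar. Klf5 sat highest at 98.1 and Tead4 lowest at 83.5, and the widest ranges were those of Tead4, 81.5 to 86.3, and Gata2, 89.7 to 94.4.

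In this comparison, which asks whether the mimic changed the factors' transcripts, none of the 10 passed the threshold. In limma, with p adjusted by the Benjamini-Hochberg method over all genes and a threshold of 0.05, the count was 0 of 10 factors and 0 of all 17399 genes (0%). With every feature in the fit in place of 1 per gene, the count was 0 of 12 features. At an unadjusted p under 0.05 it was 1 of 10, Tfap2c, against 3.17% of all genes. With the replicate block 0 of 10 passed after adjustment (0.00575% of all genes, a single gene, did), and 4 of 10 had an unadjusted p under 0.05, namely Elf5, Cdx2, Tfap2c and Gata2, against 7.24% of all genes. The mean was higher with the mimic for 4 factors and lower for 6, while 53.2% of all genes were higher. In none of the 10 were the mimic and scramble ranges separate, which was so in 9.70% of all genes. All 3 same-numbered pairs pointed the same way in 6 factors, against 33.0% of all genes. These were 3 higher, against 19.1% of all genes, and 3 lower, against 13.8%. Eomes counts among the 3 lower by its brighter feature only, since in its dimmer feature all 3 pairs were higher with the mimic. The median log2 difference of the factors was -0.10, against 0.02 over all genes, and leaving out single arrays kept it between -0.10 and -0.07. Without both replicate 1 arrays it was -0.11.

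**Figure D2:**
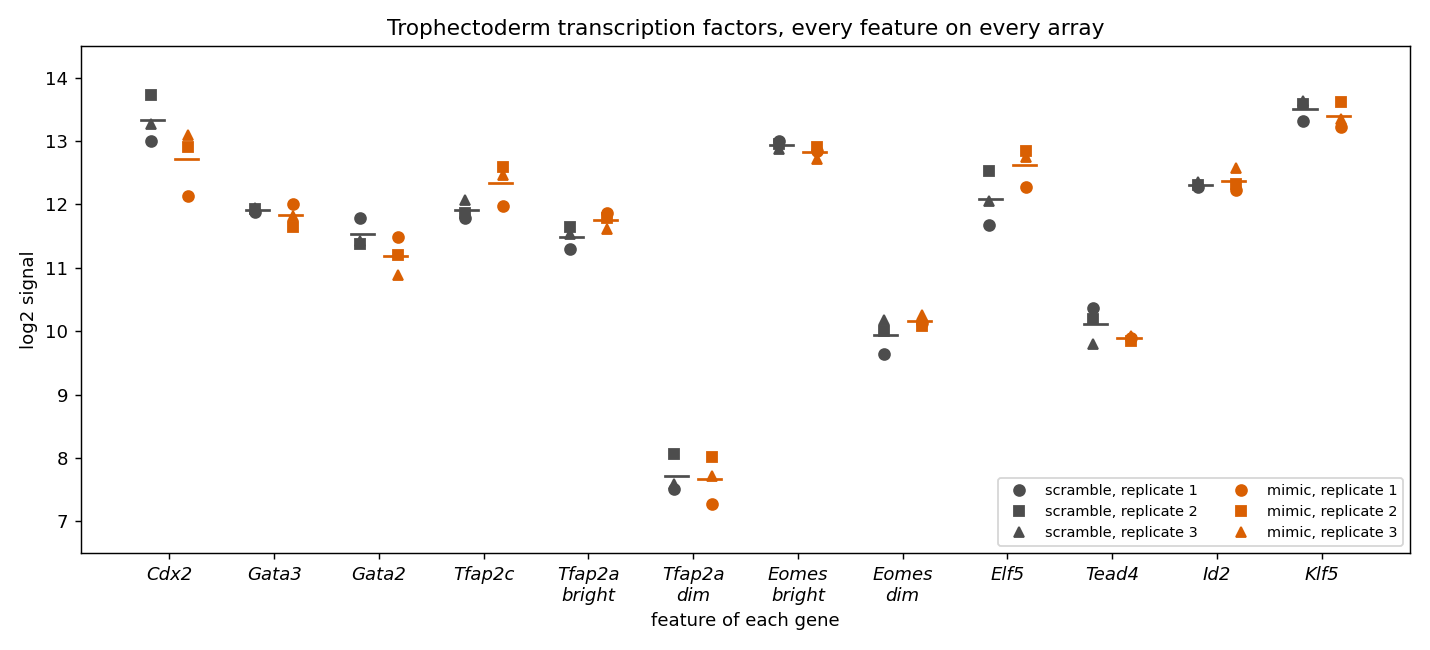
Log2 signal (vertical axis) of all 12 features of the 10 factors on every array, scramble in grey and mimic in orange, with the replicate number as the marker shape and the group mean (n = 3) as a line. The scramble and mimic values overlap for every feature, and the mimic mean of Cdx2 lies 0.62 below that of scramble.

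Tead4 and Cdx2 head the programme. Tead4, the DNA-binding partner of YAP, read 10.37, 10.20 and 9.80 on scramble replicates 1 to 3 and 9.90, 9.85 and 9.92 on the mimic replicates. The mimic arrays lay close together, inside the wider scramble range. The log2 difference, mimic minus scramble, was -0.23 (SE 0.17, limma adjusted p = 0.972), and -0.12 without both replicate 1 arrays. Single arrays moved it, to -0.39 when scramble replicate 3 was left out and to -0.11 when scramble replicate 1 was, and 1 of the 3 pairs, replicate 3, was higher with the mimic (0.12).

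Cdx2, the caudal-type homeobox factor required for the trophectoderm, had the largest difference of the 10. It read 13.00, 13.73 and 13.27 with scramble and 12.14, 12.90 and 13.10 with the mimic. Mimic replicates 1 and 2 were below every scramble array, and mimic replicate 3 lay within the scramble range. The mean was 13.33 ± 0.37 with scramble and 12.71 ± 0.51 with mimic (SD, n = 3 each). Mimic minus scramble came to -0.62 on the log2 scale (SE 0.28, 95% interval -1.25 to 0.01, limma adjusted p = 0.972), which is 1.54-fold lower with the mimic. The same-numbered differences were -0.86, -0.83 and -0.17, and with the replicate block the SE was 0.15 (adjusted p = 0.506). The size rested in part on mimic replicate 1, without which it was -0.33, and it was -0.50 without both replicate 1 arrays. An exact two-sided permutation test over the arrays gave p = 0.2, where 3 arrays against 3 cannot go below 0.1.

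The GATA factors share a zinc-finger domain that binds the sequence GATA, and both act in trophoblast. Gata3, which can induce trophoblast genes alongside Cdx2, read 11.88, 11.93 and 11.94 with scramble and 12.00, 11.65 and 11.82 with the mimic. Its scramble arrays hardly differed, and the mimic arrays fell on either side of them. The log2 difference was -0.09 (SE 0.13, 95% interval -0.38 to 0.20), and ran from -0.18 without mimic replicate 1 to 0.00 without mimic replicate 2. It was -0.19 without both replicate 1 arrays. Gata2, a factor of trophoblast giant cell genes, read 11.79, 11.38 and 11.43 with scramble and 11.49, 11.20 and 10.88 with the mimic. Mimic replicates 2 and 3 were below all scramble arrays, while mimic replicate 1 was above 2 of them. Its means were 11.54 ± 0.22 and 11.19 ± 0.30 (SD, n = 3 each), and the log2 difference of -0.35 (SE 0.18, limma adjusted p = 0.972, and 0.587 with the replicate block) came with a lower value in each same-numbered pair, -0.31, -0.18 and -0.55. Leaving out mimic replicate 3 gave -0.19, leaving out scramble replicate 1 gave -0.22, and leaving out both replicate 1 arrays gave -0.37.

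Of the AP-2 factors, Tfap2c and the bright feature of Tfap2a had higher means with the mimic. Tfap2c, which encodes AP-2 gamma and is needed for trophoblast growth, read 11.79, 11.87 and 12.07 with scramble and 11.97, 12.59 and 12.47 with the mimic. Mimic replicates 2 and 3 were above every scramble array, and mimic replicate 1 was inside their range. The scramble mean was 11.91 ± 0.14 and the mimic mean 12.34 ± 0.33 (SD, n = 3 each), and the difference was 0.43 (SE 0.18, 95% interval 0.03 to 0.84, limma adjusted p = 0.972) or 1.35-fold. The pairs gave 0.18, 0.72 and 0.40, the difference was 0.56 without both replicate 1 arrays, and with the replicate block the SE was 0.12 (adjusted p = 0.569).

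Tfap2a, which encodes AP-2 alpha, has 2 features annotated to different RefSeq transcripts, and they did not give the same picture. The bright feature read 11.29, 11.65 and 11.54 with scramble and 11.86, 11.78 and 11.62 with the mimic, so that the means differed by 0.26 (SE 0.14). Of the mimic arrays only replicate 3 lay within the scramble range. Leaving out scramble replicate 1 gave 0.16, and leaving out both replicate 1 arrays gave 0.11. The dim feature read 7.51, 8.07 and 7.59 with scramble and 7.27, 8.01 and 7.71 with the mimic, a log2 difference of -0.06, at a level close to that of unnamed features. In the mean of both features the difference was 0.10.

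Elf5 and Eomes belong to the trophoblast stem-cell state. Elf5, an ETS-domain factor that reinforces Cdx2 and Eomes, read 11.68, 12.53 and 12.05 with scramble and 12.27, 12.84 and 12.75 with the mimic. Mimic replicates 2 and 3 were above every scramble array. Replicate 1 was lowest and replicate 2 highest in both groups, and within each number the mimic was higher, by 0.59, 0.31 and 0.70. The scramble mean was 12.09 ± 0.43 and the mimic mean 12.62 ± 0.31 (SD, n = 3 each), 0.53 apart on the log2 scale (SE 0.24, 95% interval -0.01 to 1.07, limma adjusted p = 0.972) or 1.45-fold. With the replicate block the SE was 0.10 and the adjusted p was 0.373, the smallest of the 10 factors under any setting with 1 feature per gene, and with every feature in the fit and the block it was 0.361. The difference was 0.50 without both replicate 1 arrays, 0.33 without scramble replicate 1 and 0.75 without scramble replicate 2. The exact two-sided permutation test gave p = 0.2.

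Eomes, a T-box factor of the polar trophectoderm, also has 2 features, and these had opposite signs. The bright feature read 13.00, 12.96 and 12.87 with scramble and 12.85, 12.90 and 12.72 with the mimic, and mimic minus scramble was -0.12 (SE 0.13, 95% interval -0.41 to 0.16). The whole span over 6 arrays was 0.28, the narrowest of the 10 factors. The dim feature, annotated to the same transcript, read 9.64, 10.01 and 10.17 with scramble and 10.13, 10.08 and 10.26 with the mimic, and mimic minus scramble was 0.22 (SE 0.18). In the mean of both features the difference was 0.05, so these data give no direction for Eomes. Without both replicate 1 arrays the bright feature gave -0.11.

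Id2 and Klf5 also had small differences with intervals on both sides of 0. Id2, an inhibitor of basic helix-loop-helix factors that marks outer cells early, read 12.28, 12.31 and 12.35 with scramble and 12.22, 12.32 and 12.57 with the mimic. Its log2 difference of 0.06 (SE 0.13, 95% interval -0.25 to 0.36) came from mimic replicate 3, without which it was -0.05, and it was 0.11 without both replicate 1 arrays. Klf5, a zinc-finger factor used by trophectoderm and inner cell mass alike, read 13.32, 13.58 and 13.63 with scramble and 13.22, 13.61 and 13.34 with the mimic. Its arrays were interleaved between the groups, with a log2 difference of -0.12 (SE 0.16, 95% interval -0.49 to 0.25), and of -0.13 without both replicate 1 arrays. Single arrays moved it, to -0.23 without mimic replicate 2 and to -0.03 without mimic replicate 1.

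**Figure D3:**
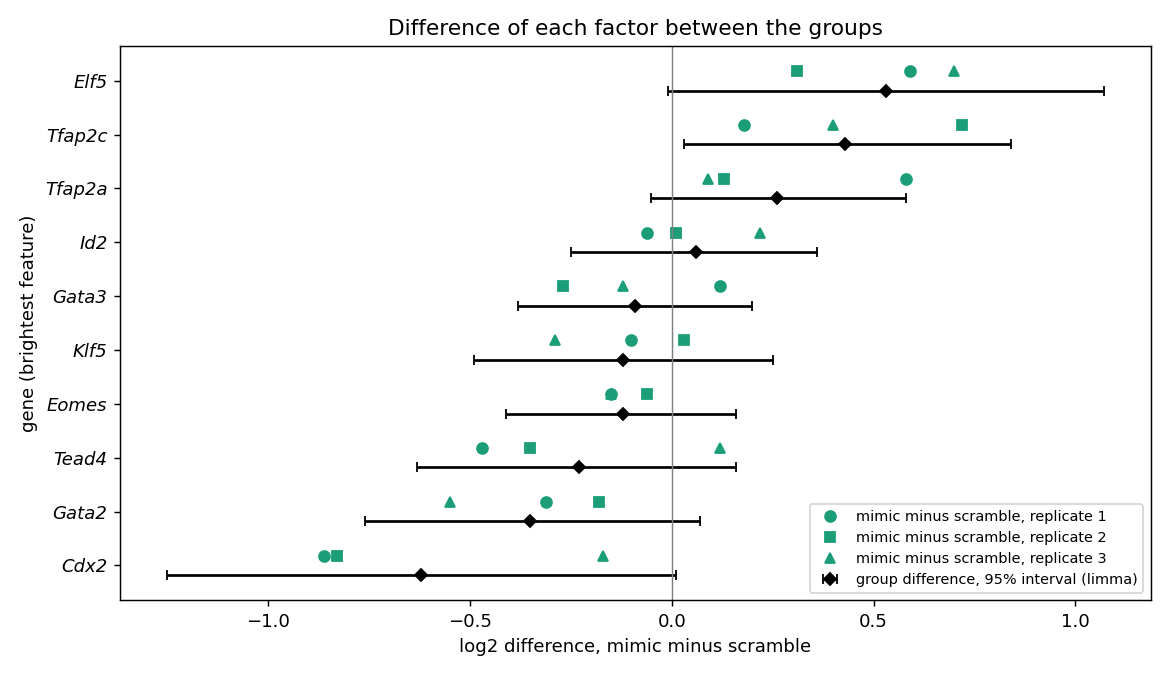
Log2 difference of each factor's brightest feature, mimic minus scramble (horizontal axis), as the 3 same-numbered differences (green, replicate 1 and replicate 3 coincide for Eomes) and the limma group difference with its 95% interval (black, without the replicate block). The pairs are all above 0 for Elf5, Tfap2c and Tfap2a and all below 0 for Cdx2, Gata2 and Eomes, while of the group intervals that of Tfap2c alone, 0.03 to 0.84, leaves out 0.

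The factors did not move as a block over the 6 arrays, as the following Pearson correlations of each gene's brightest feature describe. They share arrays, labelling and the group difference, and no test is attached to them. Elf5 and Tfap2c varied together (r = 0.79), as did Gata2 and Eomes (r = 0.82) and Elf5 and Tfap2a (r = 0.70). The bright Eomes feature used here spanned only 0.28 over the arrays, and the dim feature differed between the groups with the opposite sign. Gata2 ran against Elf5 (r = -0.87), Tfap2c (r = -0.83) and Id2 (r = -0.80), Gata3 against Tfap2c (r = -0.79) and Eomes against Id2 (r = -0.72). These are the strongest values among all pairs of the factors, taken over only 6 arrays, so they single out no linked pair. Cdx2 was near 0 with Elf5 (r = 0.10), Tfap2c (r = -0.09) and Gata3 (r = -0.11), and its closest partner among the factors was Klf5 (r = 0.68). Over all genes the profiles most like that of Cdx2 were those of Ppa2 and Vax2os2 (r = 0.989 each), Slc20a1 (r = 0.988), Sp140 (r = 0.980) and Mrpl24 (r = 0.975). These are the 5 highest values among 17399 genes, taken over only 6 arrays, and 146 genes exceeded r = 0.9 with Cdx2. They therefore single out no partner of Cdx2.

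The promoters of Cdx2 and Elf5 are shown because these factors had the largest differences in each direction. Each window holds the 250 bases before a RefSeq start site (mouse assembly GRCm38.p6), written 5′ to 3′ on the strand of the gene, and capitals mark letters matched by any of 7 short motifs on either strand. Elf5 has 2 start sites in the table. The Cdx2 window lies at chr5:147307250-147307499 on the minus strand and those of Elf5 at chr2:103411848-103412097 and chr2:103423818-103424067 on the plus strand.
Cdx2: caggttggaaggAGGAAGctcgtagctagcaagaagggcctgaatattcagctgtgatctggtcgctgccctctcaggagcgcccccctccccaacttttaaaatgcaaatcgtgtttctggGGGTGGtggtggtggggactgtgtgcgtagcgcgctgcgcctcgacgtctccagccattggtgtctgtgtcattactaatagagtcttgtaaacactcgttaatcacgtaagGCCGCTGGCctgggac
Elf5, first start site: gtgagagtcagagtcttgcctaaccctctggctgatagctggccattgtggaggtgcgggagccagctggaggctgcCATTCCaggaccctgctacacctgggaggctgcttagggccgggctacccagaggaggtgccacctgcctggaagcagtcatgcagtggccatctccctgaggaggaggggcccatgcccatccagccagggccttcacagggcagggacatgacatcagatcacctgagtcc
Elf5, second start site: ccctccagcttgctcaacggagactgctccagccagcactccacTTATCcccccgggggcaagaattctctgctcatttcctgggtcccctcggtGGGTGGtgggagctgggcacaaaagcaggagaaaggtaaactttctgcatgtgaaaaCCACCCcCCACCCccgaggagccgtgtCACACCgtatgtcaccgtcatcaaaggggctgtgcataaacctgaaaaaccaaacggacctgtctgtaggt

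The motifs searched were CATTCC for TEAD factors, GATAA for GATA factors, TTTATNG for CDX factors, GCCNNNGGC for AP-2, GGTGTG for T-box factors, AGGAAG for ETS factors and CCACCC for KLF factors. The Cdx2 window holds an AP-2 match 16 to 8 bases before the start, a KLF match and an ETS match. The first Elf5 window holds a TEAD match, and the second holds a GATA match, a T-box match and 3 KLF matches. None of these matches overlaps another. Among all 32851 promoter windows of that length, 13.7% hold the AP-2 letters, 12.6% the TEAD letters, 22.6% the GATA letters, 16.3% the T-box letters, 29.5% the ETS letters, 28.1% the KLF letters and 9.81% the CDX letters. Windows were at hand for 7 of the 10 factors, 10 windows in all, of which 3 hold AP-2, 2 TEAD, 1 GATA, 0 CDX, 2 T-box, 3 ETS and 4 KLF letters. The Gata3 window holds 3 AP-2 matches, and its GC content is 70.0% against a median of 52.4% over all windows. The first and second Gata2 windows have a GC content of 67.2% and 74.0%, with 0 and 1 AP-2 matches. A match of letters is a description of the sequence, and no binding was measured.

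Upstream of these factors, the Hippo and Notch genes had small differences in both directions. Of 17 such genes in the comparison 10 were higher and 7 lower, none passed in limma, and 0 reached an unadjusted p under 0.05, against 3.17% of all genes. Their median was 0.13, against 0.02 over all genes, and lay between 0.04 and 0.20 when single arrays were left out. Without both replicate 1 arrays it was 0.09. The smallest p-values belonged to Tead3, a relative of Tead4 (0.40, SE 0.28), the Hippo kinase gene Stk4 (0.28, SE 0.20) and Rbpj, the DNA-binding factor of the Notch pathway (0.33, SE 0.25). Yap1, the coactivator of Tead4, had means of 11.19 ± 0.05 with scramble and 11.08 ± 0.08 with the mimic (SD, n = 3 each).

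Downstream, 22 trophectoderm effector genes split in both directions. In mean, 7 were higher and 15 lower. Their median was -0.05, between -0.12 and 0.03 when single arrays were left out, and -0.02 without both replicate 1 arrays. None passed after adjustment over all genes, with or without the replicate block, and 5 had an unadjusted p under 0.05, against 3.17% of all genes. The lysosomal ganglioside-binding protein gene Gm2a (-0.58, SE 0.15) and Dab2, an endocytic adaptor gene (-0.47, SE 0.14), were on the lower side, and Tinagl1, which encodes an extracellular matrix protein, was on the higher side (0.53, SE 0.14). The tight junction gene Cgn (-0.43, SE 0.13) and the trophoblast gene Plac1 (0.59, SE 0.17) were the other 2. The mimic and scramble ranges did not overlap in 6 of the 22, against 9.70% of all genes, and these were the 5 genes just named and Krt8. Like the 10 factors and the other lists, this list was chosen with earlier results of these data known. Its shares beside those of all genes are therefore a description and not a test. The keratin genes had log2 differences of -0.27 (SE 0.21) for Krt8 and -0.05 (SE 0.26) for Krt18. On scramble replicates 2 and 3 Krt18 read 15.76 and 16.00, and on mimic replicates 2 and 3 it read 15.75 and 15.95. Each of these was the highest value on its array, so the Krt18 difference is read at the top of the scale. Whether that hides a change was not tested.

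Other transcription factors of the trophoblast and the relatives of the 10 factors were also read. Of 21 other trophoblast factors 11 were higher and 10 lower, and 0 passed. Their median was 0.08, between 0.01 and 0.13 when single arrays were left out, and 0.08 without both replicate 1 arrays. Hand1, a regulator of giant cells, read 7.07, 7.84 and 7.16 with scramble and 8.33, 9.14 and 7.80 with the mimic (log2 difference 1.07, SE 0.41, limma adjusted p = 0.972). It was the 1 gene of the 21 with an unadjusted limma p under 0.05, against 3.17% of all genes. Scramble replicates 1 and 3 were below 7.22, the median of features without a gene name, so the size of the difference is uncertain. Only mimic replicate 3 fell inside the scramble range. Tfeb (-0.45, SE 0.22), a factor of placental vascularisation, and Arid3a (0.26, SE 0.15) followed by p. Of 23 relatives from the same gene families 12 were higher and 11 lower, and 0 passed. Their median was 0.01, between 0.00 and 0.06 when single arrays were left out, and 0.04 without both replicate 1 arrays. The 3 with the smallest p among them were Gata4 (0.34, SE 0.19), a primitive endoderm factor, Klf6 (0.52, SE 0.31) and Tfap2b (0.41, SE 0.25), the last at 7.03 to 8.00 near the dim end.

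**Figure D4:**
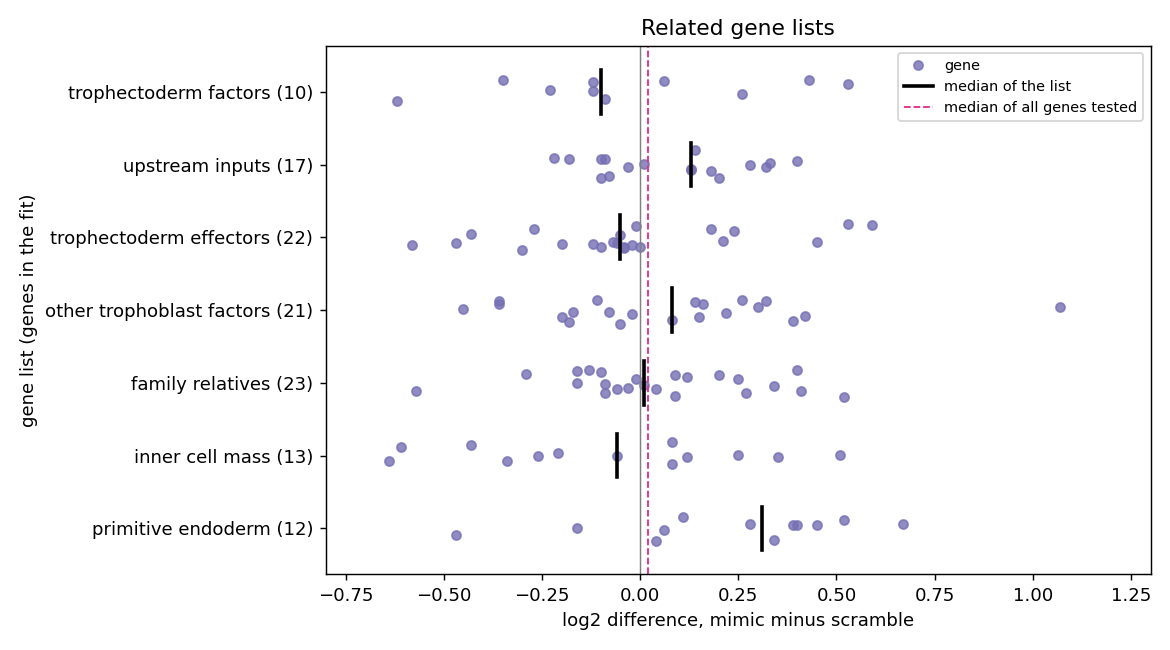
Log2 difference, mimic minus scramble (horizontal axis), of each gene in 7 lists, with the number of genes in the comparison in brackets, the list median as a black bar and the median of all 17399 genes as a dashed line at 0.02. Points spread to both sides of 0 in every list, with list medians from -0.10 for the trophectoderm factors to 0.31 for the primitive endoderm.

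The other lineages give the setting for these values. Of 13 inner cell mass genes 6 were higher and 7 lower, and 0 passed. Their median was -0.06, between -0.13 and 0.08 when single arrays were left out, and -0.01 without both replicate 1 arrays. The germline and pluripotency gene Dppa3 (-0.64, SE 0.31), Nanog (-0.34, SE 0.17) and Tfcp2l1 (-0.26, SE 0.15) had the smallest p. The mimic and scramble ranges did not overlap in 2 genes lower with the mimic, Dppa3 and Nanog, and in 1 higher, Sox2 (0.51, SE 0.34). The share over all genes, in either direction, was 9.70%. The Sox2 ranges met at 8.23 when rounded. Of 12 primitive endoderm genes 10 were higher and 2 lower, while 53.2% of all genes were higher, and 0 passed. The list median was 0.31 (between 0.16 and 0.39 when single arrays were left out, 0.15 without both replicate 1 arrays), against 0.02 over all genes. An unadjusted limma p under 0.05 was found for 2, Cubn and Aqp8, which had opposite signs, against 3.17% of all genes. The mimic and scramble ranges did not overlap in 2 of the 12, against 9.70% of all genes. Cubn had 0.52 (SE 0.16), Aqp8 -0.47 (SE 0.17) and Foxa2 0.39 (SE 0.19). Of 6 genes of the polar trophectoderm 3 were higher and 3 lower, and besides Cdx2 and Elf5 the smallest p was that of Esrrb (0.16, SE 0.14). The shares of the lineages in these embryos were not measured, and their part in the differences of the trophectoderm factors was not tested.

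Markers of maternal cells and of sperm, which could be carried along with the embryos, were near the dim end with 1 exception. Of 35 markers of cumulus, oviduct, blood, stroma and sperm on the array 34 averaged under 8, and their mean level was 7.15 to 7.22 with scramble and 7.12 to 7.21 with the mimic. The exception was Foxl2, a granulosa cell factor, at 12.17 to 13.41. Among other granulosa markers, Amh and Inha lay at 6.56 to 7.26 and 6.69 to 7.32. Fshr read 8.05 on mimic replicate 1 and 7.08 or less on the other arrays. Whether the Foxl2 feature reads that transcript alone was not tested. By smallest p the genes of these lists were Has2 and Foxl2 (0.23 and -0.20), Foxj1, Tekt1 and Ovgp1 (-0.39, 0.16 and -0.12), Hbb-b1, Ptprc and Cd52 (-0.15, -0.11 and 0.12), Postn, Col3a1 and Pdgfrb (-0.79, 0.20 and -0.06), and Odf1, Tnp1 and Tnp2 (-0.28, -0.19 and 0.11), all as log2 differences with none past the threshold.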

How the data were processed

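The deposited table holds log2 signal of 45220 features on 6 arrays of 1 colour (Cy3), made by the authors from 50 ng of total RNA per sample, per the labels' protocols. How the arrays were scanned, background-corrected and normalized is not stated in the labels. The distributions nearly coincide, so a change shared by most genes cannot be seen, and no detection flags were used. Precision is limited by the number of arrays, and the median SE of a log2 difference was 0.249.

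Features were named from the platform annotation (33026 with 1 symbol, 0 with several, 12194 with none) and updated by Entrez identifier through a RefSeq table of GRCm38.p6, which matched 98.2%. All 10 factors matched by current symbol. The 25% of named features with the lowest mean (below 7.16) were left out, which kept 24769, and the brightest of each gene was used. The comparison used lmFit and eBayes of limma 3.58.1 (R 4.3.3; trend, two-sided), tested on simulated data, with Benjamini-Hochberg adjustment over all 17399 genes. Figures used matplotlib 3.10.9.

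Same-numbered arrays deviated together from their group means (r = 0.328, 0.349 and 0.204, all over 0.1), which met the rule set for pairing by number. Scramble replicate 2 with mimic replicate 3 (r = 0.185) and scramble replicate 3 with mimic replicate 2 (r = 0.124) were also over 0.1. The rule therefore does not single out the same numbers for replicates 2 and 3, and the paired values carry that doubt. This pairing comes from the data and not from the labels. The model without the block is the main one. The factors and the gene lists were chosen with earlier results of these data known, and the promoter motifs after the values were seen. Named genes are the 10 factors, the 3 genes of smallest p in each list, 7 lineage genes and the 5 genes most like Cdx2. Yap1, Cgn, Plac1, Amh, Inha and Fshr were named after their values were seen. List genes not named on the array (7, such as Stk3) were left out.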

Additional observations from a re-analysis of the deposited data

How the results depend on the processing

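None of the 10 factors passed the threshold under any setting run. With 1 feature per gene the settings were no filter or a 50% filter on dim features, the mean of a gene's features, eBayes without a trend, quantile normalization, the replicate block, each array left out, and both replicate 1 arrays left out. The smallest adjusted p of any factor under these was 0.373, for Elf5 with the replicate block. With every feature in the fit, run with the filter, without it and with the block, 0 of the 12 features passed, and Elf5 had an adjusted p of 0.361 with the block. Between 3 and 5 factors were higher with the mimic. The sign turned for Eomes in the mean of its features (0.05) and for Id2, which ranged from -0.05 without mimic replicate 3 to 0.13 without mimic replicate 1. Gata3 came to 0.00 without mimic replicate 2. The replicate block gave 1 gene past the threshold of all 17399, which was not a factor, and 1260 genes with an unadjusted p under 0.05 in place of 552. That count was 930 without both replicate 1 arrays. With single arrays left out it lay between 351 (mimic replicate 2) and 906 (scramble replicate 2). The causes were not tested. In the median feature of each gene Tfap2a stood at percentile 62.9 and Eomes at 87.7, since each then takes its dim feature. With 3 arrays a group, the 95% interval of Cdx2 still runs from -1.25 to 0.01 and that of Elf5 from -0.01 to 1.07, which sets the size of difference that can be resolved.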
